A study of Homo sapiens with 6 samples.

Results

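The mitochondrial ribosomal protein (MRP) genes are nuclear genes for the protein subunits of the mitochondrial ribosome. They were taken as every row of the deposited gene table whose symbol is MRPL followed by a number, or MRPS followed by a number with an optional letter from A to C, with pseudogenes left out. This gave 78 of 61860 genes, 49 named for the large subunit (MRPL) and 29 named for the small subunit (MRPS). All 78 passed the filter on low values and were tested.

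Mitochondrial ribosomes sit in the mitochondrial matrix and make the few proteins that mitochondrial DNA encodes, all of them core parts of the respiratory chain or of ATP synthase. Their rRNAs come from mitochondrial DNA, while every protein subunit is encoded in the nucleus, made in the cytosol and imported. Some subunits descend from bacterial ribosomal proteins and others are particular to mitochondria, and loss of single subunits causes respiratory chain disease in people, often with neurological signs.

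RNA was sequenced from SH-SY5Y, a human neuroblastoma line, which is a single tumour-derived line. In both groups the cells had been differentiated towards neurons with all-trans retinoic acid and made insulin resistant (IR) over 24 h with insulin at 100 nM and D-glucose at 30 mM. The 3 IR+Oligonol libraries came from cells that also received Oligonol, a polyphenol preparation from lychee fruit, at 500 ng/mL for 24 h, and the 3 IR control libraries came from cells that did not. No label says that the 3 libraries of a group are separate cultures; the p-values therefore measure only how these samples vary, which may be technical variation.

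In each library 17272 to 29013 read equivalents fell on MRP genes, that is, estimated counts turned back into reads through transcript length. The member with the fewest in any library was MRPS31, with 9.48 read equivalents in IR control 1. Levels below are CPM values of the estimated counts (a gene's part of the library total, scaled) after TMM scaling. Because the estimated counts behaved as values per transcript length, these levels can be set side by side between genes. The libraries also differed in composition. Protein-coding genes held 12.3, 10.0 and 11.8% of the estimated counts in the IR+Oligonol libraries and 6.83, 6.73 and 6.24% in the IR control libraries. Scaling by library totals leaves this difference in the fold changes. Protein-coding counts had a median GC content of 51.2, 54.1 and 51.6% with Oligonol and 56.2, 56.3 and 56.0% in controls. In both measures IR+Oligonol 2 lay between the other IR+Oligonol libraries and the controls. Noradrenergic neuroblast markers, the defining markers of this line, were detected: 11 of 12 passed the filter, while TH was at 0.027 to 0.036 CPM in IR+Oligonol and 0.064 to 0.12 CPM in IR control libraries. Their summed level was 149 to 210 CPM with Oligonol and 244 to 293 CPM in controls. Of markers of other cells, 5 glial genes summed to 1.57 to 2.00 CPM with Oligonol and 1.57 to 1.90 CPM in controls, 5 myeloid genes to 0.811 to 1.41 and 0.772 to 1.60 CPM, 5 fibroblast genes to 5.53 to 6.60 and 7.63 to 10.5 CPM, and 4 endothelial genes to 0.026 to 0.19 and 0.0567 to 0.0733 CPM. Their part in the results was not tested.

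Promoter sequences of the members were searched for short words, the cores of sites for known factors. A RefSeq window of GRCh38.p14, from 250 bases before to 50 bases after the start, was matched to 69 of the 78 members. The stretches below are the 120 bases before the RefSeq start of 5 genes to which the results return, 5′ to 3′ on the strand of the gene. MRPL41 had the highest level of all members, MRPS34 held 3 copies of the word bound by ETS factors, MRPL54 held 1 copy, MRPL50 had the highest fold change, and MRPL12 was the member that went up once a trend with GC content was removed. Capitals mark CCGGAAG (ETS factors such as GABPA) or GGGCGG (SP1), each on either strand.
MRPL41, chr9:137551759-137551878, plus strand: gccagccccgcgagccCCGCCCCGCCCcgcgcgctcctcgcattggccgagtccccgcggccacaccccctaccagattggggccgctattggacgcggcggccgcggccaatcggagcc
MRPS34, chr16:1773135-1773254, minus strand: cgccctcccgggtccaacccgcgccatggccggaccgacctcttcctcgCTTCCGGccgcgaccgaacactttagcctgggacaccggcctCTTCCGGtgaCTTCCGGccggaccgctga
MRPL54, chr19:3762562-3762681, plus strand: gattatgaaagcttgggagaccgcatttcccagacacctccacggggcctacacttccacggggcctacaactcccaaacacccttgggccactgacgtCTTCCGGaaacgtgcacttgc
MRPL50, chr9:101398619-101398738, minus strand: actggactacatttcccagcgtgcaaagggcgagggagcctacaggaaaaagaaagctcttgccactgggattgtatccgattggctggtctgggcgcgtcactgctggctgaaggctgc
MRPL12, chr17:81703247-81703366, plus strand: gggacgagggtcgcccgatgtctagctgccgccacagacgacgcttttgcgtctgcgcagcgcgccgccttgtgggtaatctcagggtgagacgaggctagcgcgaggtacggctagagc

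Another word lay at a like place in many members. AAGATGGC, the core of the site for the factor YY1, was found on either strand in 21 of 69 members (30.4%), against 6.75% of 9534 tested protein-coding genes and 3.52% of all 27305 genes with a window. In 16 of these 21 it lay on the strand of the gene and after the start. The 30-base stretches below, with the word in capitals, come from 3 genes that were higher and 3 that were lower with Oligonol, so the word was present on both sides.
MRPL50, chr9:101398577-101398606: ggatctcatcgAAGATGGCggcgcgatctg
MRPL42, chr12:93467511-93467540: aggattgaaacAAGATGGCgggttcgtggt
MRPS27, chr5:72320206-72320235: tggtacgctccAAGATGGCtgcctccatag
MRPS24, chr7:43869480-43869509: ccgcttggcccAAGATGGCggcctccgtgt
MRPL49, chr11:65122333-65122362: cgtagcaggtaAAGATGGCagctaccatgt
MRPS18A, chr6:43687764-43687793: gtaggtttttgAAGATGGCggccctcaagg

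The ETS word was in 30 of 69 members (43.5%), against 23.5% of tested protein-coding genes and 12.2% of all genes with a window. GCATGCGC, the core of the site for NRF1, a factor known for driving nuclear genes of mitochondria, was in 6 members (8.70%), against 6.63 and 3.68%. The SP1 word was in 42 members (60.9%), against 78.4 and 48.3%. At least 1 of the ETS and YY1 words was found in 43 members and both in 8. Whether the words overlapped was not tested. The median log2 fold change was -0.38 in members with the ETS word and -0.18 in those without, and -0.27 with the YY1 word and -0.37 without. Once the trend of each library with GC content was removed, these medians were -0.35 and -0.30 for the ETS word and -0.39 and -0.31 for the YY1 word, so the order for YY1 turned round. These words are letters in a window; binding was not measured.

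With TMM scaling most MRP genes that moved with Oligonol went down, while with library totals none did. Of the 78 members, 25 were lower and 7 were higher with Oligonol at an adjusted p under 0.05, and 46 did not pass (edgeR's quasi-likelihood test, 2-sided, Benjamini-Hochberg adjustment over all 16574 genes tested). That is 32.1% lower and 8.97% higher, beside 23.0% lower and 26.0% higher among all genes tested, and 27.5 and 27.1% among protein-coding genes. The median log2 fold change was -0.33 for the members, 0.15 for all genes and 0.03 for protein-coding genes. With library totals in place of TMM the median of all genes moved to 1.53 and that of the members to 1.08, and 56 members were called higher and 0 lower, beside 68.1 and 0.223% of all genes. The median of the members minus that of all genes was -0.45 with library totals and -0.47 with TMM. Libraries of the 2 groups did not overlap for 40 members: IR+Oligonol lay below IR control in 29 (37.2%, beside 28.8% of all genes tested) and above it in 11 (14.1%, beside 33.8%). A lower level in bulk RNA can come from fewer cells that express a gene or from less RNA per cell, and the pair cannot be told apart here.

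The size of these counts depended on single libraries. Without IR+Oligonol 2, which lay nearest the controls in 24 of the 25 lower members, 35 members were lower and 5 higher, beside 24.1 and 22.4% of all genes. Without IR control 1, 23 were lower and 1 higher, beside 15.1 and 15.5%. Leaving out IR+Oligonol 1, IR+Oligonol 3, IR control 2 or IR control 3 left 3, 2, 2 and 1 lower and 1, 0, 1 and 0 higher. Calls among all genes fell away with them, to 4.21, 2.85, 3.88 and 0.996% lower and 9.47, 7.83, 8.65 and 2.90% higher. The number of members with a negative log2 fold change stayed at 49 to 54 in these 6 fits, against 48 with all libraries. MRPL21, a large-subunit protein with a bacterial homologue, kept its call in all 6 of these fits and MRPL14 in 5. MRPL21, named here after its values were seen, was at 2.91, 3.30 and 3.10 CPM with Oligonol and 5.80, 5.71 and 8.64 CPM in controls (log2 fold change -1.12 ± 0.21, SE; adjusted p = 0.0086), with little spread among the IR+Oligonol libraries. MRPL21 did not pass with the GC trend removed (-0.69; adjusted p = 0.055), and with library totals its log2 fold change was 0.29.

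**Figure D1:**
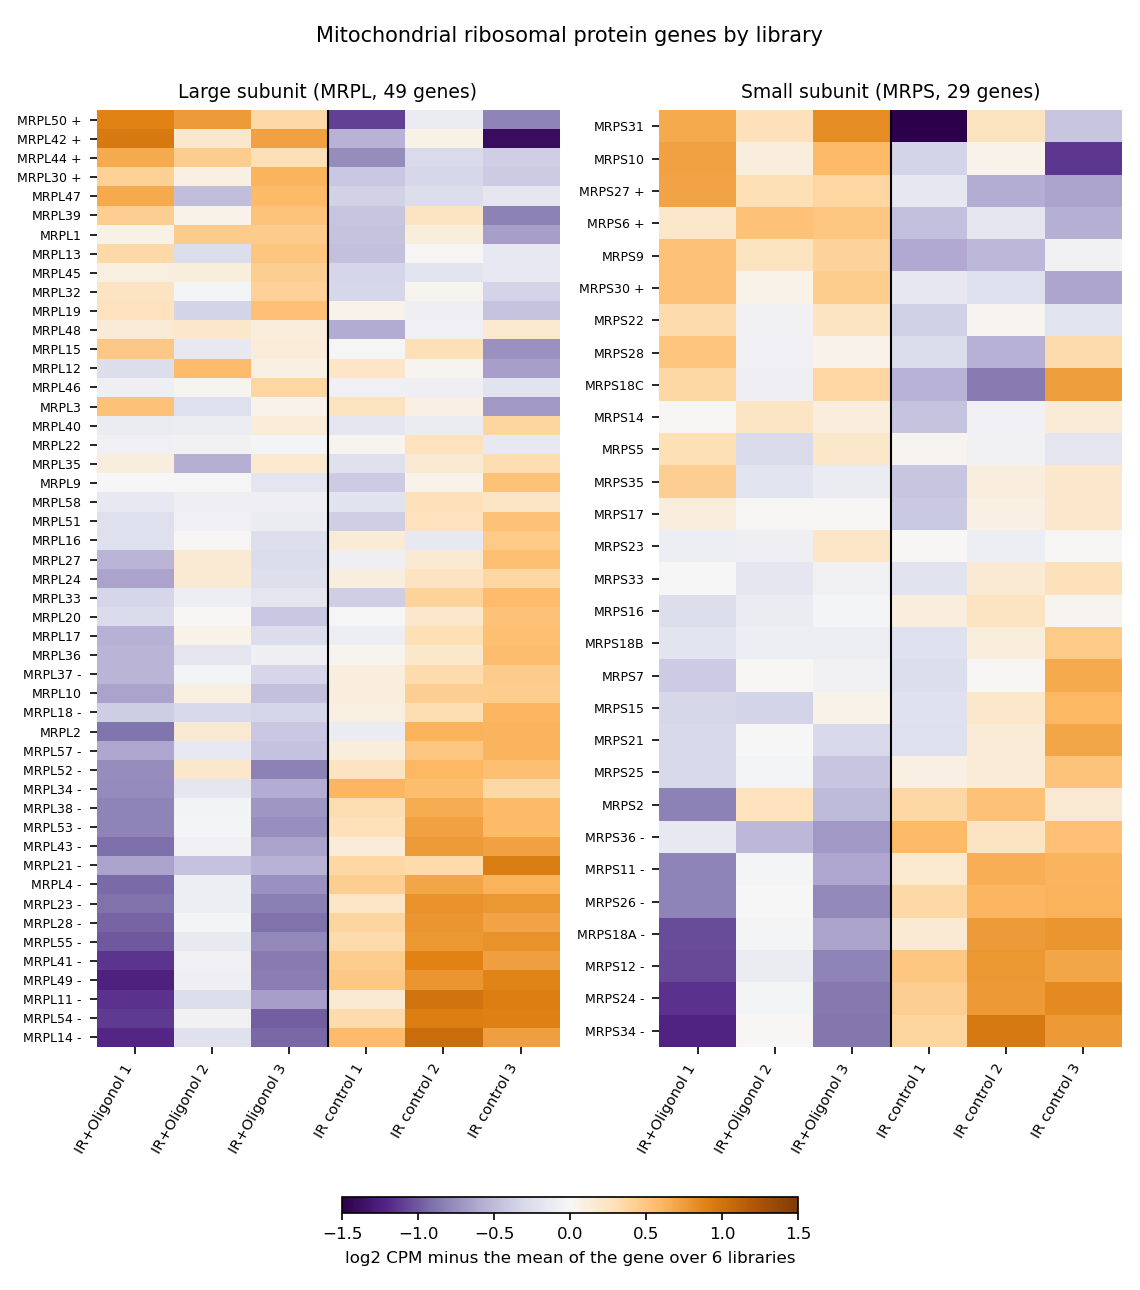
Heat map of the 78 mitochondrial ribosomal protein genes in the 3 IR+Oligonol and 3 IR control libraries, large subunit at left and small subunit at right, ordered by log2 fold change from highest to lowest. Colour is log2 CPM (TMM scaling) minus the mean of the gene over the 6 libraries, clipped at 1.5, and + or - after a symbol marks an adjusted p under 0.05. The lower rows, mostly low with Oligonol, have IR+Oligonol 2 close to the mean; with library totals in place of TMM no member was called lower.

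Large-subunit genes made up most of the lower calls, and also most of the members. Among the 49 MRPL genes, 18 were lower and 4 higher (36.7 and 8.16%), with a median log2 fold change of -0.44. Among the 29 MRPS genes, 7 were lower and 3 higher (24.1 and 10.3%), with a median of -0.15. These shares stand beside 23.0% lower and 26.0% higher among all genes tested, and 27.5 and 27.1% among protein-coding genes. The share of MRPS genes called lower was thus near that of other genes. No test was made between the subunits, since genes are not replicates. MRPS30 and MRPS18A carry small-subunit symbols but are known from structures to sit in the large subunit; counted there, the large subunit had 19 lower and 5 higher of 51 and the small subunit 6 lower and 2 higher of 27.

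Summed over genes, the large subunit stood at 193, 285 and 211 CPM in the IR+Oligonol libraries and at 324, 422 and 421 CPM in the IR control libraries. The small subunit stood at 98.6, 136 and 107 CPM with Oligonol and at 151, 188 and 197 CPM in controls. Neither sum overlapped between the groups. The ratio of the large to the small sum was 1.96, 2.10 and 1.98 with Oligonol and 2.14, 2.24 and 2.13 in controls, again without overlap, with IR+Oligonol 2 just under IR control 3. As a share of the protein-coding estimated counts of each library, which TMM does not touch, the 78 members together held 0.454, 0.516 and 0.466% with Oligonol and 0.514, 0.553 and 0.526% in controls, and here IR+Oligonol 2 overlapped IR control 1. As a share of protein-coding read equivalents they held 0.329, 0.405 and 0.348% with Oligonol and 0.417, 0.473 and 0.452% in controls, without overlap. On the log2 scale the ratio of the group means was -0.73 for the summed CPM, -0.15 for the share of estimated counts and -0.31 for the share of read equivalents.

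**Figure D2:**
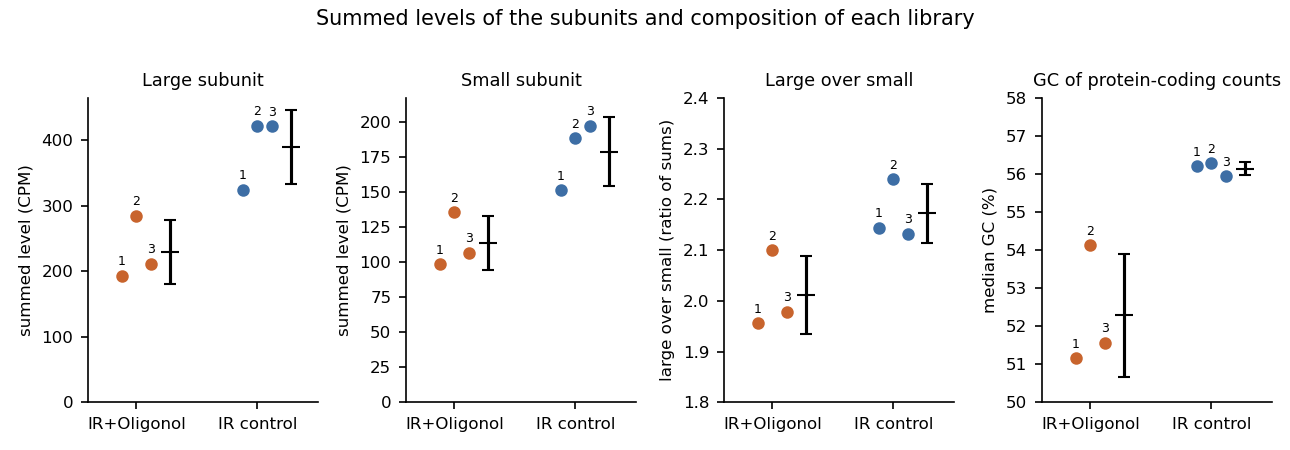
Summed level of large-subunit and small-subunit genes in CPM, the ratio of these sums, and the GC content of protein-coding counts (median, percent), for 3 IR+Oligonol (left, orange) and 3 IR control (right, blue) libraries. Points are libraries with their number, and bars are the mean ± SD (n = 3); IR+Oligonol 2 is the highest of its group in all 4 panels, and no panel overlaps between groups. The axes of the ratio and of GC content do not start at 0; the sums, in CPM after TMM scaling, would run the other way with library totals, by which no member was called lower.

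Among large-subunit proteins with bacterial homologues, 8 of 29 genes were lower and 1 higher (27.6 and 3.45%). The shares among all protein-coding genes tested were 27.5 and 27.1%, so the lower share of this class was that of other genes. MRPL14, at the interface between the subunits, had the lowest log2 fold change of all members. It stood at 2.31, 4.60 and 2.77 CPM in the IR+Oligonol libraries and at 7.93, 11.0 and 8.87 CPM in the IR control libraries. The groups did not overlap, and the log2 fold change was -1.53 ± 0.28 (SE; adjusted p = 0.0082 by edgeR's quasi-likelihood test). MRPL11, at the base of the stalk that recruits elongation factors, was at 2.54, 4.73 and 3.56 CPM with Oligonol and 6.30, 11.2 and 10.7 CPM in controls. It too was below the controls in every IR+Oligonol library (log2 fold change -1.38 ± 0.30, SE; adjusted p = 0.011). MRPL28 averaged 12.8 ± 4.93 CPM with Oligonol and 29.4 ± 4.30 CPM in controls (SD, n = 3 each; log2 fold change -1.20), and MRPL23, a protein at the exit of the peptide tunnel, 11.7 ± 3.87 and 26.3 ± 5.68 CPM (-1.18). Both were among the 4 members with the highest levels. MRPL18 was lower by less but with little spread, at 2.45, 2.60 and 2.55 CPM with Oligonol and 3.42, 3.95 and 4.86 CPM in controls (log2 fold change -0.68 ± 0.19, SE; adjusted p = 0.020).

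The one gene of this class that was higher was MRPL30, at 1.42, 1.13 and 1.63 CPM with Oligonol and 0.793, 0.855 and 0.807 CPM in controls (log2 fold change 0.78; adjusted p = 0.030). MRPL12, the mobile arm of the stalk, also reported to bind the mitochondrial RNA polymerase, was at 6.57, 11.7 and 8.37 CPM with Oligonol and 9.10, 8.07 and 4.96 CPM in controls. Its groups overlapped and it did not pass (log2 fold change 0.26 ± 0.29, SE; adjusted p = 0.49). Further members of this class did not pass either. MRPL3, mutated in a cardiomyopathy, averaged 4.29 ± 1.16 CPM with Oligonol and 3.70 ± 1.16 CPM in controls, MRPL22, which lines the peptide tunnel, averaged 0.715 ± 0.0096 and 0.772 ± 0.11 CPM, and MRPL1, the homologue of bacterial L1 at the tRNA exit, 0.716 ± 0.10 and 0.463 ± 0.14 CPM (SD, n = 3 each). MRPL22 and MRPL1 were among the 4 members with the lowest levels, and MRPL1 rested on as few as 12.7 read equivalents in IR control 3.

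Large-subunit proteins particular to mitochondria gave calls in both directions, 11 lower and 4 higher of 22 genes when MRPS30 and MRPS18A are counted with them. That is 50% lower and 18.2% higher, beside 27.5 and 27.1% of protein-coding genes tested. MRPL41 had the highest level of all members, at 10.4, 22.0 and 12.8 CPM with Oligonol and 31.2, 42.7 and 38.2 CPM in controls. Each IR+Oligonol library was below each control, with IR+Oligonol 2 the closest (log2 fold change -1.31 ± 0.32, SE; adjusted p = 0.014). MRPL54 averaged 4.72 ± 2.02 CPM with Oligonol and 12.3 ± 2.64 CPM in controls (log2 fold change -1.39), MRPL49 4.09 ± 1.74 and 10.5 ± 1.51 CPM (-1.37), and MRPL55 8.61 ± 2.80 and 20.4 ± 3.54 CPM (-1.25; SD, n = 3 each). None of these 3 overlapped between the groups. MRPL57 was at 1.11, 1.53 and 1.25 CPM with Oligonol and 1.85, 2.38 and 2.61 CPM in controls (log2 fold change -0.83 ± 0.22, SE; adjusted p = 0.018). MRPL57 is uncertain, since pseudogenes of it held 47.8% of the counts of the gene and its pseudogenes together.

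Among the members called higher, the 3 with the highest fold changes belong to the same class. MRPL50 was at 0.736, 0.665 and 0.502 CPM with Oligonol and 0.185, 0.366 and 0.226 CPM in controls, the lowest level of all members. Every IR+Oligonol library exceeded every control (log2 fold change 1.24 ± 0.37, SE; adjusted p = 0.026). MRPL42 was at 3.27, 1.93 and 2.78 CPM with Oligonol and 1.15, 1.77 and 0.639 CPM in controls, with IR+Oligonol 2 and IR control 2 close to each other (log2 fold change 1.19 ± 0.35, SE; adjusted p = 0.026). MRPL44, a subunit with a fold like that of ribonuclease III and a cause of infantile cardiomyopathy when mutated, averaged 1.18 ± 0.16 CPM with Oligonol and 0.619 ± 0.10 CPM in controls (SD, n = 3 each; log2 fold change 0.94). MRPL50 and MRPL44 lost their calls in all 6 fits that left out 1 library, where their adjusted p was 0.060 to 0.14 and 0.067 to 0.099. Their log2 fold changes stayed at 0.91 or more and 0.68 or more in these fits. MRPL58, which can release peptides from stalled ribosomes, averaged 1.82 ± 0.050 and 2.11 ± 0.36 CPM and did not pass (log2 fold change -0.21 ± 0.20, SE; adjusted p = 0.40).

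Small-subunit proteins with bacterial homologues had 3 lower and 1 higher of 16 genes (18.8 and 6.25%). Both shares were below those of protein-coding genes (27.5 and 27.1%). MRPS12, a protein of the decoding centre that affects the accuracy of translation, was at 3.49, 6.73 and 4.18 CPM with Oligonol and 10.1, 12.5 and 11.8 CPM in controls. The groups were well apart (log2 fold change -1.26 ± 0.27, SE; adjusted p = 0.010). MRPS24, the homologue of bacterial S3 at the mRNA entry, averaged 12.8 ± 5.45 CPM with Oligonol and 31.3 ± 4.60 CPM in controls (SD, n = 3 each; log2 fold change -1.30), which made it the member with the second-highest level. MRPS6 was the gene that went up, at 2.36, 2.93 and 2.87 CPM with Oligonol and 1.48, 1.79 and 1.37 CPM in controls (log2 fold change 0.80; adjusted p = 0.015). MRPS9 averaged 0.926 ± 0.084 and 0.546 ± 0.12 CPM; its groups did not overlap, but it did not pass (log2 fold change 0.72 ± 0.27, SE; adjusted p = 0.060). MRPS16, in which disease mutations are known, was at 6.31, 6.99 and 7.38 CPM with Oligonol and 8.14, 8.94 and 7.78 CPM in controls, and did not pass either (log2 fold change -0.27 ± 0.17, SE; adjusted p = 0.21).

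Small-subunit proteins particular to mitochondria had 2 lower and 1 higher of 10 genes (20 and 10%). Again both shares were below those of protein-coding genes (27.5 and 27.1%). MRPS34, whose mutation causes Leigh syndrome, was at 6.78, 15.8 and 8.62 CPM with Oligonol and 20.5, 30.7 and 26.9 CPM in controls. The groups did not overlap (log2 fold change -1.32 ± 0.34, SE; adjusted p = 0.017). MRPS27, a pentatricopeptide repeat protein, was at 5.15, 3.87 and 4.08 CPM with Oligonol and 2.83, 2.12 and 2.03 CPM in controls, each IR+Oligonol library above each control (log2 fold change 0.91 ± 0.21, SE; adjusted p = 0.012). MRPS22, another disease gene, averaged 1.29 ± 0.17 CPM with Oligonol and 1.01 ± 0.13 CPM in controls (SD, n = 3 each) and did not pass (log2 fold change 0.33 ± 0.23, SE; adjusted p = 0.27). MRPS36 belongs to no class here, because the protein is now assigned to the 2-oxoglutarate dehydrogenase complex. It was lower, at 1.12, 0.862 and 0.762 CPM with Oligonol and 1.83, 1.46 and 1.77 CPM in controls (log2 fold change -0.88 ± 0.25, SE; adjusted p = 0.022).

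**Figure D3:**
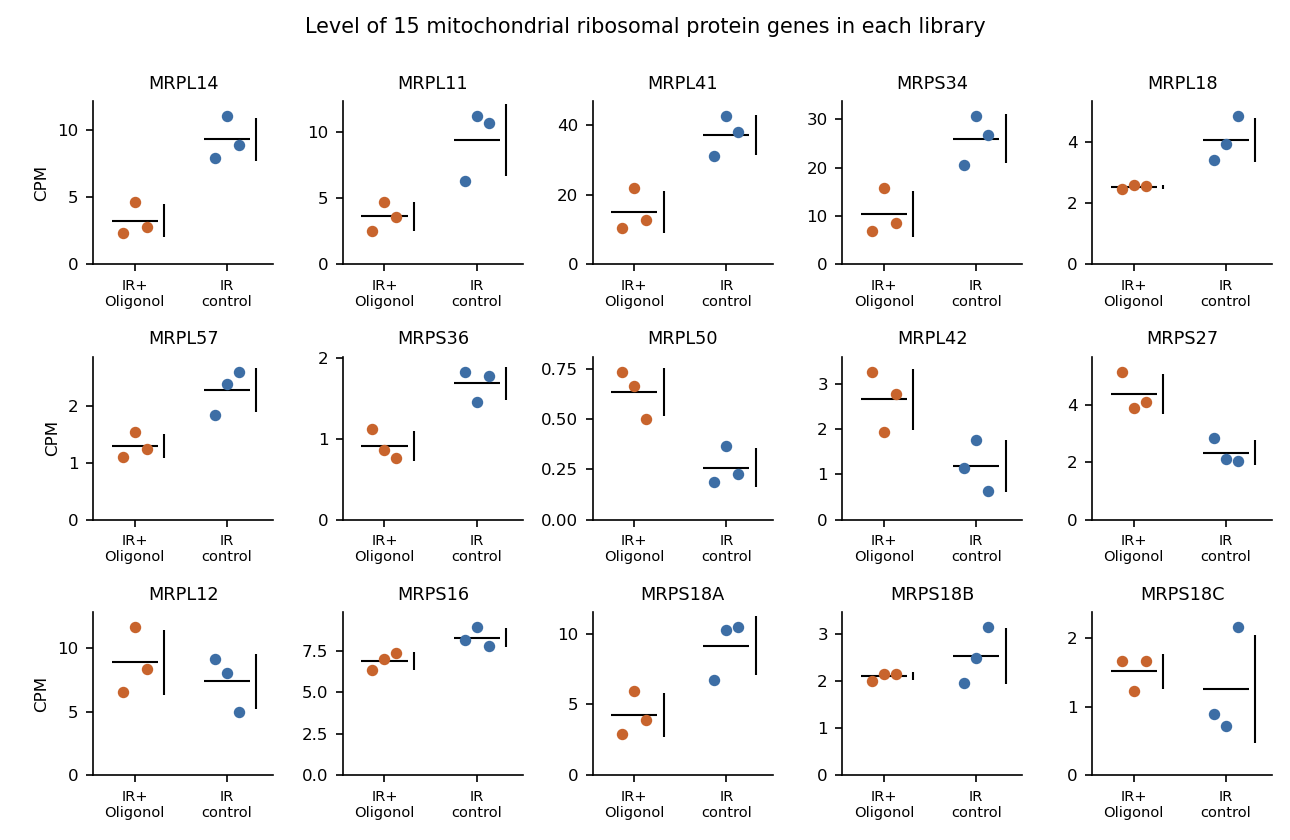
Level in CPM (TMM scaling) of 15 genes in each of the 3 IR+Oligonol (left, orange) and 3 IR control (right, blue) libraries; the horizontal line is the mean and the vertical line the mean ± SD (n = 3). In the first 7 panels, MRPL14 to MRPS36, every IR+Oligonol library lies below every control, in MRPL50, MRPL42 and MRPS27 every one lies above, and in MRPL12, MRPS18B and MRPS18C the groups overlap; with library totals in place of TMM, the fold changes of MRPL41, MRPL18, MRPL57 and MRPS36 among these 7 were positive.

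Of the 3 MRPS18 paralogues 1 passed the test, and the differences between them were not tested. MRPS18A, a large-subunit protein despite its symbol, was lower, at 2.94, 5.93 and 3.89 CPM with Oligonol and 6.75, 10.3 and 10.5 CPM in controls (log2 fold change -1.12 ± 0.30, SE; adjusted p = 0.019). MRPS18B was at 2.00, 2.14 and 2.15 CPM with Oligonol and 1.96, 2.48 and 3.14 CPM in controls and did not pass (-0.27 ± 0.21, SE; adjusted p = 0.32). MRPS18C, the one at the place of bacterial S18, was at 1.66, 1.22 and 1.67 CPM with Oligonol and 0.886, 0.715 and 2.16 CPM in controls, with a wide spread among controls (0.26 ± 0.40, SE; adjusted p = 0.61). The transcripts of MRPS18A, MRPS18B and MRPS18C had a GC content of 58.4, 51.5 and 38.9%. Their log2 fold changes with the GC trend removed were -0.38, -0.22 and -0.97 and none passed, and with library totals they were 0.23, 1.14 and 1.74. MRPS30, the other large-subunit protein with a small-subunit symbol, was higher, at 2.84, 2.05 and 2.67 CPM with Oligonol and 1.77, 1.68 and 1.27 CPM in controls (log2 fold change 0.67 ± 0.22, SE; adjusted p = 0.034), and its GC content was 37.8%.

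Fold change followed GC content across the members. Of 22 members with a transcript GC content of 55% or more, 18 were lower and 0 higher (81.8% lower, beside 70.1% of protein-coding genes of that GC content), and their median log2 fold change was -1.13. Of 19 members at 50 to 55%, 4 were lower (21.1%, beside 15.2% of protein-coding genes) and 0 higher (beside 5.27%). Of 13 at 45 to 50%, 2 were lower (15.4%, beside 2.23%) and 0 higher (beside 33%). Of 24 members under 45%, 7 were higher (29.2%, beside 65.7% of protein-coding genes) and 1, MRPS36, was lower (4.17%, beside 0.311%), with a median of 0.53. Spearman's rho between log2 fold change and GC content was -0.80 over the 78 members and -0.85 over 11719 protein-coding genes, all from the same 6 libraries, in which genes are not independent replicates. Among the members, GC content also rose with the control level (rho 0.82), so GC-rich members were also the abundant ones. GC content of 55% or more was found in 32.7% of MRPL and 20.7% of MRPS genes. Whether library preparation or the cells gave this trend was not tested.

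At like GC content the members still lay below other protein-coding genes. Their median log2 fold change was 0.53 against 1.00 for protein-coding genes under 45% GC, 0.17 against 0.46 at 45 to 50%, -0.42 against -0.16 at 50 to 55%, and -1.13 against -0.89 at 55% or more. With the GC trend of each library removed, 67 of 78 members had a negative log2 fold change (85.9%), against 51.2% of protein-coding genes. The count was 44 of 49 for MRPL (89.8%) and 23 of 29 for MRPS (79.3%), while the medians were -0.29 and -0.38. The median was thus lower for MRPS here and lower for MRPL with TMM alone, and the share below 0 was larger for MRPL in this fit; the difference between the subunits was not tested. The number below 0 was 64 to 72 when each library was left out in turn. This is a description of one list and carries no test.

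Single-gene calls were few once the GC trend was removed. They numbered 7 lower and 1 higher of 78 members (8.97 and 1.28%), beside 2.67% lower and 2.66% higher among the 16200 genes that could be fitted this way. An unadjusted p under 0.05 was found for 26 members, and the share of all genes at that threshold was not worked out. MRPL14 (log2 fold change -1.05; adjusted p = 0.043), MRPL11 (-1.35; 0.048), MRPL18 (-0.95; 0.032), MRPL57 (-1.15; 0.038) and MRPS36 (-2.01; 0.024) were lower both with and without the trend (edgeR's quasi-likelihood test). MRPS33, a small-subunit protein, and MRPL22 were lower only with the trend removed (-1.06; 0.034 and -1.16; 0.040). MRPL22 is uncertain, since its pseudogenes held 15.1% of the counts of the gene and its pseudogenes together. MRPL12, with a GC content of 64.6%, was the one higher call (1.26; 0.038), while MRPL41 (-0.35), MRPS34 (-0.36), MRPL50 (-0.06) and MRPL42 (0.02) were not past. Leaving out IR+Oligonol 1, IR+Oligonol 3, IR control 2 or IR control 3 left 0 calls among members, and among all genes, in this fit. Without IR+Oligonol 2 there were 4 lower and 0 higher, beside 1.14% lower and 1.03% higher of all genes. Without IR control 1 there were 4 lower and 1 higher, beside 1.24 and 1.13%. Over these 6 fits the log2 fold change ran from -1.31 to -0.92 for MRPL14, from -2.23 to -1.85 for MRPS36 and from 1.02 to 1.46 for MRPL12.

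**Figure D4:**
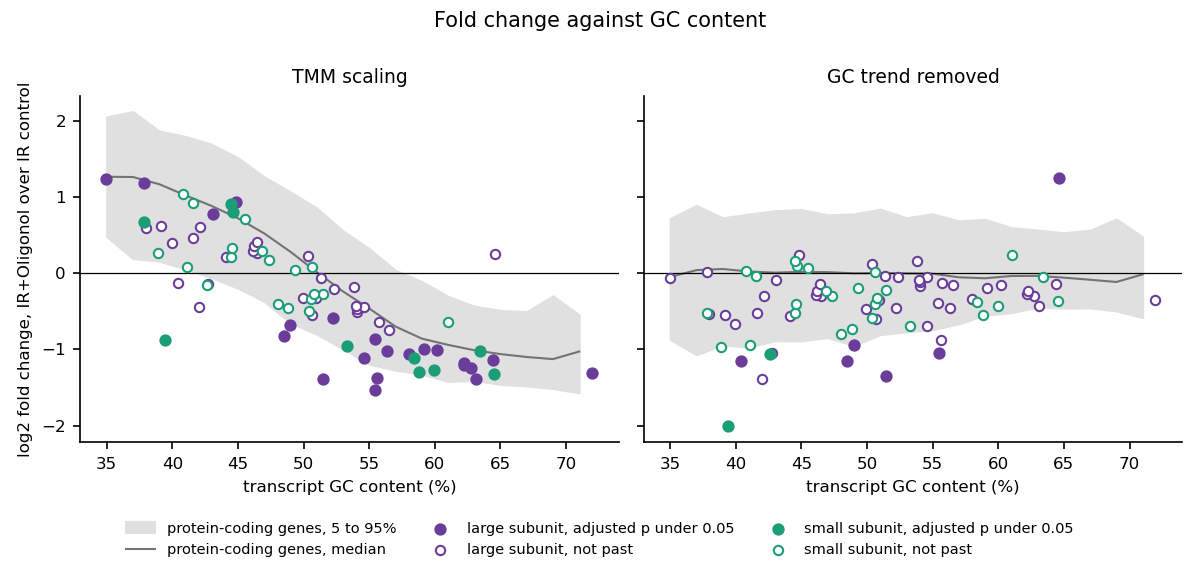
Log2 fold change of IR+Oligonol over IR control against transcript GC content in percent for the 78 members, with TMM scaling (left) and with the GC trend of each library removed (right); purple is the large and green the small subunit, filled where the adjusted p is under 0.05. The grey line and band are the median and the 5 to 95% range of protein-coding genes in steps of 2% GC. Members run downward with GC at left, and at right 67 of 78 lie below 0, with MRPL12 at 1.26 and MRPS36 at -2.01; with library totals most fold changes at left would be positive.

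The members not named above kept to the same range. The other lower genes (MRPL4, MRPL34, MRPL37, MRPL38, MRPL43, MRPL52, MRPL53 and MRPS26) had log2 fold changes of -1.14 to -0.59 and groups that did not overlap. Among the 46 that did not pass, log2 fold changes ran from -0.74 (MRPL2) to 1.04 (MRPS31).

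Neighbouring starts were common. For 16 of 78 members (20.5%) the start lay within 500 bases of that of a protein-coding gene on the other strand, against 10.7% of tested protein-coding genes. MRPS11 and MRPL46, on chromosome 15, are each other's partner, with starts 63 bases apart. The stretch between them is shown because it lies between the starts of a small-subunit and a large-subunit gene. Whether it serves both was not tested. None of the 4 words was found in it, but the YY1 word of MRPL46 lay just outside, beginning at base 9 from the RefSeq start of MRPL46.
MRPL46 to MRPS11, chr15:88467391-88467452, on the strand of MRPL46: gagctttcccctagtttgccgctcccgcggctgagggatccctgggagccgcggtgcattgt
MRPS11 was at 2.94, 5.01 and 3.34 CPM with Oligonol and 5.82, 8.05 and 7.87 CPM in controls and was lower (log2 fold change -0.95 ± 0.25, SE; adjusted p = 0.017). MRPL46 was at 1.19, 1.29 and 1.61 CPM with Oligonol and 1.20, 1.19 and 1.08 CPM in controls and did not pass (0.23 ± 0.22, SE; adjusted p = 0.41). The pair was named after its values were seen.

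Some values rest on reads that could belong elsewhere. Pseudogenes of 36 members filled 79 rows of the table, and they held over 10% of the joint counts for 6 members: MRPS10 (53.4%), MRPL45 (50.2%), MRPS31 (49.4%), MRPL57, MRPL35 (20.5%) and MRPL22. MRPS10 and MRPS31 had positive fold changes that did not pass (0.92 and 1.04; adjusted p = 0.054 and 0.067). A gene on the other strand overlapped 39 members, MRPL14, MRPL11, MRPS34 and MRPS12 among them. The kit marks strand, but no source here gives the strand setting of the quantification.

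Genes that act with the mitochondrial ribosome moved in both directions. Among all genes tested 26.0% were higher and 23.0% lower. The 4 lists, in the order below, had a median GC content of 46.5, 54.1, 45.3 and 43.7%. Of 5 subunits under other symbols, PTCD3 was higher, at 7.55, 6.93 and 7.71 CPM with Oligonol and 3.76, 4.65 and 2.07 CPM in controls (log2 fold change 1.09), AURKAIP1 was lower (-1.14) and so was GADD45GIP1 (-0.86). Of 28 assembly and rRNA modification factors, 3 were higher and 11 lower (10.7 and 39.3%). FASTKD2 (1.57), an RNA-binding protein needed for the large subunit, and TFB1M (1.42), the methyltransferase of the small-subunit rRNA, had the smallest p. Of 16 translation factors, 6 were higher and 1 lower (37.5 and 6.25%). LRPPRC, which stabilises mitochondrial mRNAs, was at 11.9, 8.30 and 11.8 CPM with Oligonol and 3.89, 3.67 and 2.70 CPM in controls, and it was the one gene of the list still called with the GC trend removed (1.64 with TMM alone; 0.73 with the trend removed, adjusted p = 0.038). GFM1, an elongation factor, was higher (1.59). TUFM, the mitochondrial elongation factor Tu, was the one that was lower (-1.03), at 14.1, 26.6 and 16.0 CPM with Oligonol and 35.4, 41.2 and 39.3 CPM in controls. Of 16 transcription and RNA processing genes, 7 were higher and 4 lower. POLRMT (-1.34), the mitochondrial RNA polymerase, and TBRG4 (-1.27), a protein of the FASTK family, had the smallest p, and both were lower. With the GC trend removed these 4 lists had 0 higher and 0 lower, 0 and 2, 1 and 0, and 0 and 0 calls. Among all genes 2.66% were higher and 2.67% lower in that fit. The 2 were MALSU1 (-0.81; adjusted p = 0.042) and NDUFAB1 (-0.83; adjusted p = 0.038), neither of which had passed with TMM alone (0.0080 and -0.39), so none of the 14 calls of the assembly list was among them.

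The RNAs that mitochondrial ribosomes hold and read did not pass the test with TMM alone, by which 26.0% of all genes were higher and 23.0% lower. The rRNAs MT-RNR1 and MT-RNR2 had log2 fold changes of -0.17 ± 0.31 and -0.37 ± 0.31 (SE; adjusted p = 0.66 and 0.34, edgeR's quasi-likelihood test), and of 13 mitochondrial mRNAs 0 passed in either direction, with a median of -0.10. With the GC trend removed all 13 mRNAs had negative log2 fold changes, with a median of -0.85, and MT-ND4L was lower (-1.38; adjusted p = 0.047), while MT-RNR1 (-0.84; 0.13) and MT-RNR2 (-1.26; 0.085) did not pass. That trend was fitted on protein-coding genes, of which mitochondrial ones are few.

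**Figure D5:**
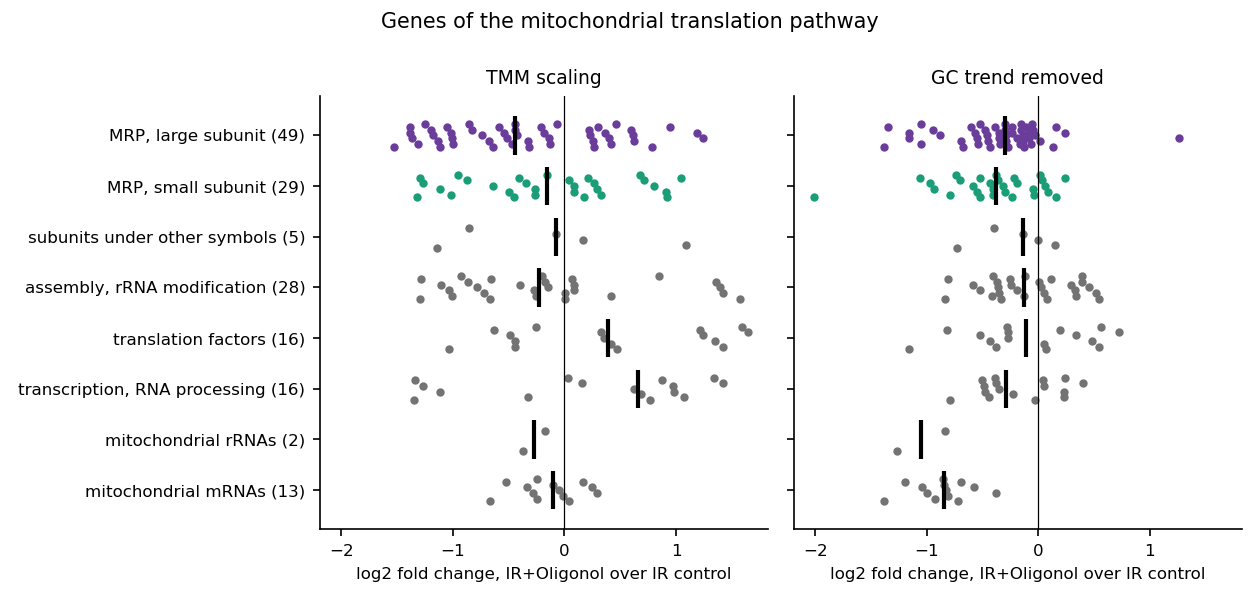
Log2 fold change of IR+Oligonol over IR control for genes of the mitochondrial translation pathway, with TMM scaling (left) and with the GC trend removed (right). Each point is a gene, the vertical line is the median of the list, and the number of genes is in parentheses; the large-subunit median is -0.44 at left and -0.29 at right, and the translation factors' 0.39 and -0.11. With library totals in place of TMM the median of all genes would be 1.53, against 0.15.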

How the data were processed

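Per the labels' protocols, libraries of total RNA were strand-marked and sequenced in pairs of 100 nt reads. FastQC, edgeR, kallisto 0.46.1 and the build GRCh38.p13 are listed in the submitters' processing notes without their roles; no source here gives the step from transcript estimates to gene totals. The authors deposited estimated counts per gene and library, not whole for 99.0 to 99.1% of values above 0, and a column of signal, which was the estimated count times 1 constant per library and was not used. Estimated counts summed to 19457923 to 32209583 per library. For low genes with transcripts of 500 to 1500 nt, 65.7 to 68.8% of values came within 0.05 of a whole number of reads once multiplied by effective transcript length, against 6.97 to 10.2% without; length and scale were fitted to favour whole numbers. Intervals and p-values cover counting error and the spread between libraries only.

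Estimated counts were rounded, filtered with filterByExpr, scaled by TMM and tested over all 16574 genes with edgeR 4.0.16 (robust quasi-likelihood test, group as the only term) in R 4.3.3. Biotype, transcript length and GC content are medians over transcripts of GENCODE release 29, which need not be the release the authors used; all 78 members were matched. The GC trend was a natural spline (5 degrees of freedom, prior count 0.5) fitted in each library on protein-coding genes and used as the offset of the model; it removes any true change that follows GC as well. The scripts were tested on simulated data. Other settings were upper-quartile, RLE and library-total scaling, DESeq2 1.42.0, limma-voom (limma 3.58.1), other filters, protein-coding genes alone, read equivalents, the replicate block, each library left out and a threshold of 0.01. Read equivalents, and leaving out libraries with the GC trend removed, were chosen after seeing the data.

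The members and lists were chosen with earlier results of these data known. Members were named where they were among the 10 highest or 10 lowest fold changes past the threshold without overlap, were called with and without the GC trend, had the 4 highest or 4 lowest levels, or were among 12 chosen disease, stalk and paralogue genes (MRPL12, MRPL58, MRPS12, MRPS16, MRPS22, MRPS30, MRPS34, MRPS18A, MRPS18B, MRPS18C, MRPL3 and MRPL44), and in other lists the 2 smallest p; MRPL2, MRPL21, MRPL46, MRPS10, MRPS11, MRPS31 and MRPS33 were named after their values were seen. Coordinates of genes are those of the deposited table; promoter windows are from RefSeq, GRCh38.p14.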

Additional observations from a re-analysis of the deposited data

How the results depend on the processing

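The members' higher and lower counts kept within 1.5 times of 7 and 25 under RLE (7 and 27), upper-quartile scaling (9 and 23), limma-voom (8 and 26) and read equivalents (8 and 28). In these fits 24.0 to 28.7% of all genes tested were higher and 20.7 to 24.7% lower. DESeq2 gave 3 and 31 (1 large-subunit gene higher), no filter 1 and 9 (large subunit 0 and 8, small subunit 1 and 1), at least 10 counts in all libraries 11 and 23 (large subunit 7 higher) and protein-coding genes alone 12 and 28 (small subunit 6 higher). Small-subunit genes higher numbered 5 with upper-quartile scaling and 5 with limma-voom. Library totals gave 56 and 0 (large subunit 34 and 0, small subunit 22 and 0), beside 68.1 and 0.223% of all genes. At a threshold of 0.01 there were 0 and 3 (large subunit 0 and 3, small subunit 0 and 0). The share of all genes at 0.01 was not worked out. Removing the GC trend gave 1 and 7 (large subunit 1 and 5, small subunit 0 and 2), beside 2.66 and 2.67% of all genes. With read equivalents as well it gave 1 and 16 (large subunit 1 and 10, small subunit 0 higher), beside 4.01 and 5.78%.

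With 1 library left out, higher counts ranged from 0 to 5 and lower counts from 1 to 35 for all members, 0 to 3 and 1 to 25 for the large subunit, and 0 to 2 and 0 to 10 for the small subunit; with the GC trend removed they ranged from 0 to 1 and from 0 to 4. Where such a fit made 0 calls among all members in a direction, 30 members had an unadjusted p under 0.05 (21 to 30 with the GC trend removed); with library totals 56 had one, and 39 in the fit read at 0.01. Same-numbered libraries did not deviate together (correlations 0.087, -0.0087 and -0.15), so the numbers were not taken to pair samples. The replicate block gave 4 and 27 (large subunit 2 higher), beside 21.5% higher and 20.9% lower of all genes. With the GC trend removed as well it gave 0 and 0 (large subunit 0 and 0, small subunit 0 and 0), beside 0 and 0% of all genes. There 32 members had an unadjusted p under 0.05. The share of all genes was not worked out for any of these unadjusted counts. The cause of these shifts was not tested.

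Of 735 refits of the 39 named genes, 478 kept direction and side of the threshold, 175 lost and 30 gained the call, and 52 changed sign. With library totals the log2 fold changes turned positive for MRPL2 (0.61), MRPL18 (0.73), MRPL21 (0.29), MRPL22 (1.24), MRPL23 (0.17), MRPL28 (0.13), MRPL41 (0.0014), MRPL55 (0.094), MRPL57 (0.55), MRPL58 (1.20), MRPS11 (0.40), MRPS12 (0.064), MRPS16 (1.11), MRPS18A (0.23), MRPS18B (1.14), MRPS24 (0.022), MRPS33 (1.26) and MRPS36 (0.52). The filter of 10 counts did so for MRPL22 (0.13), MRPL58 (0.047) and MRPS33 (0.10). With the GC trend removed, with the replicate block as well, and with read equivalents as well, they turned negative for MRPL1 (-0.54, -0.54 and -0.55), MRPL3 (-0.56, -0.55 and -0.60), MRPL30 (-0.082, -0.087 and -0.15), MRPL50 (-0.064, -0.032 and -0.063), MRPS10 (-0.038, -0.016 and -0.11), MRPS18C (-0.97, -0.76 and -0.98), MRPS22 (-0.41, -0.40 and -0.44) and MRPS30 (-0.53, -0.53 and -0.56). With read equivalents and the GC trend removed, MRPL42 turned negative too (-0.049). Over the fits without 1 library, MRPL12 ranged from -0.18 to 0.45, MRPL3 from -0.11 to 0.29 and MRPS18C from -0.12 to 0.82.

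Low members limit what can be seen: MRPS31 and MRPL1 rested on 9.48 and 12.7 read equivalents in their lowest library.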
